A study of Mus musculus with 8 samples.

Results

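Nod2, Nod1 and their signalling partners were followed in RNA of Paneth cells (PCs), the secretory cells at the base of the crypts of the small intestine that release lysozyme and antimicrobial peptides. The 6 genes were the muropeptide sensors Nod1 and Nod2, their kinase Ripk2, the ubiquitin ligase Xiap, the adaptor Card9 and the NOD-like receptor Nlrp6. They were found in the count table by the Ensembl IDs that carry these symbols in the annotation, and make up 6 of its 55414 gene IDs. PCs had been sorted by FACS from the small intestine of wild-type mice (C57BL/6J in the study's methods) 3 hours after an injection of PBS or of tumor necrosis factor (TNF), with 4 libraries from PBS mice and 4 from TNF mice. The study describes its sorted samples in general as PCs from individual mice but its workflow also speaks of pooling sorted cells, the labels do not say which applies here, and no source used here gives the age of the mice or the dose and route of TNF. No untreated mice and no other time point were measured, so each comparison below is between TNF and PBS at 3 hours.

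NOD1 and NOD2 are receptors in the cytosol that bind fragments of bacterial peptidoglycan. Once bound, they recruit the kinase RIPK2, on which XIAP and other ligases build ubiquitin chains, and these chains bring in the kinases that activate NF-kB. CARD9 links NOD2 and fungal lectin receptors to MAP kinases and to NF-kB, and NLRP6 is a receptor of the gut epithelium that can form an inflammasome and has been tied to mucus secretion and to the gut flora. NOD2 is a known susceptibility gene of ileal Crohn's disease, and PCs are among the epithelial cells in which it has been described. TNF itself activates NF-kB through its own receptors, in part through ligases and inhibitors that NOD signalling also uses.

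The 300 bases around the annotated start of Nod2, which rose, and of Nlrp6, which fell, are shown so that the reader can see the sequence in front of each gene. They run from 250 bases before to 50 bases after the start, come from RefSeq on GRCm38.p6, and were available for 5 of the 6 genes. The Nod2 window lies at chr8:88647097-88647396 on the plus strand and the Nlrp6 window at chr7:140920652-140920951 on the plus strand. Capitals mark a match to the AP-1 motif TGANTCA.
Nod2: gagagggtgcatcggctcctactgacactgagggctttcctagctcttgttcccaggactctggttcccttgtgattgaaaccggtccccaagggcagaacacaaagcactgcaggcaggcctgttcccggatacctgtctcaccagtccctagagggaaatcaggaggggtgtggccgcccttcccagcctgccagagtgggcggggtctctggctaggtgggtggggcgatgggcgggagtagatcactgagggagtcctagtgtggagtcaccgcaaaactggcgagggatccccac
Nlrp6: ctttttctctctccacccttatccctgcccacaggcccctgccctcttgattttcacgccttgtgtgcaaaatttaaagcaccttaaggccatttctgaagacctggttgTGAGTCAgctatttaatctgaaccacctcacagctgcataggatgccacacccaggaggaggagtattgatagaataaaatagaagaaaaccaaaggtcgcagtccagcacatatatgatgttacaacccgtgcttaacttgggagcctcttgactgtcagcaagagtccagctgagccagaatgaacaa

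The windows of all 5 genes were searched on both strands for the AP-1 motif, which 7.81% of 32851 RefSeq windows held, for the interferon motifs GAAANNGAA (ISRE, in 8.56%) and TTCNNNGAA (GAS, in 8.30%), and for the NF-kB consensus (in 4.51%). The Nod2 window held none of these letters. The Nlrp6 window held the AP-1 match, a window of Nod1 held a GAS match and a window of Xiap held an ISRE match. The GC content was 61.0% in the Nod2 window and 46.7% in the Nlrp6 window. These matches describe the letters of short windows and say nothing of binding in PCs.

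The libraries held 23824717 to 32576077 counts each. Of the PC markers, 8 of 8 were tested and 1 of them, Pla2g2a, was called. The lysozyme gene Lyz1 was at 119011 to 166024 normalized CPM in PBS and at 139916 to 165549 in TNF replicates 1 to 3, with 454456 in TNF replicate 4, and did not pass (adjusted p = 0.346, edgeR). Normalized CPM are counts scaled to a common library size, so that they can be compared between libraries. Of 12 leukocyte markers, Tyrobp, Adgre1, Cd3e and Cd79a were at 0 in every library, Laptm5 and Coro1a had at most 1 count and 1 of 3 tested markers, Cd52, was called higher. Ptprc, Cd68 and Itgam had a few counts and were not tested. Csf1r had a mean of 2.10 normalized CPM in PBS and 2.99 in TNF and did not pass. Without TNF replicate 4, Csf1r was called higher (log2 fold change 0.56, adjusted p = 0.0431, edgeR). The summed level of the 12 was 10.2 to 14.7 normalized CPM in PBS and 14.0 to 71.4 in TNF, the highest in replicate 4, where Lyz2 alone was at 64.4. Of 7 stroma and endothelium markers, Col1a2 and Col3a1 were at 0 and 1, Vim, was tested and called higher (0.273 against 1.16 normalized CPM, log2 fold change 2.05, adjusted p = 0.000920, edgeR), with the sum of the 7 at 0.223 to 0.453 normalized CPM in PBS and 1.23 to 1.77 in TNF. The part of these cells in the rise of Nod2 and Ripk2 was not tested. TNF replicate 4 stood apart, with a scaling factor of 0.448 against 0.995 to 1.36 in the other libraries. Values without it are given where they changed a call among the genes described in detail.

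Of the 6 genes, 5 had enough counts to be tested between TNF and PBS and 3 were called, that is, passed an adjusted p of 0.05 in edgeR's quasi-likelihood test. Nod2 and Ripk2 rose about 10-fold and 9-fold, Nlrp6 fell about 5-fold, and Nod1 and Xiap did not pass. Over all 13368 genes tested, 43.0% were called, 23.3% higher and 19.6% lower, so a call alone was common in these libraries. When library size alone replaced scaling factors, 757 genes were called higher and 2425 lower, so that 23.8% of calls were higher, against 54.3% with scaling. A call with a change of at least 4-fold was rarer, at 3.17% of genes for rises and 1.96% for falls, (5.13% in all), and Nod2, Ripk2 and Nlrp6 all had one. In these 3 genes the PBS and TNF libraries also did not overlap, which held for 42.1% of all genes. In bulk libraries of sorted cells, fewer cells of a type and less RNA per cell cannot be told apart.

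**Figure D1:**
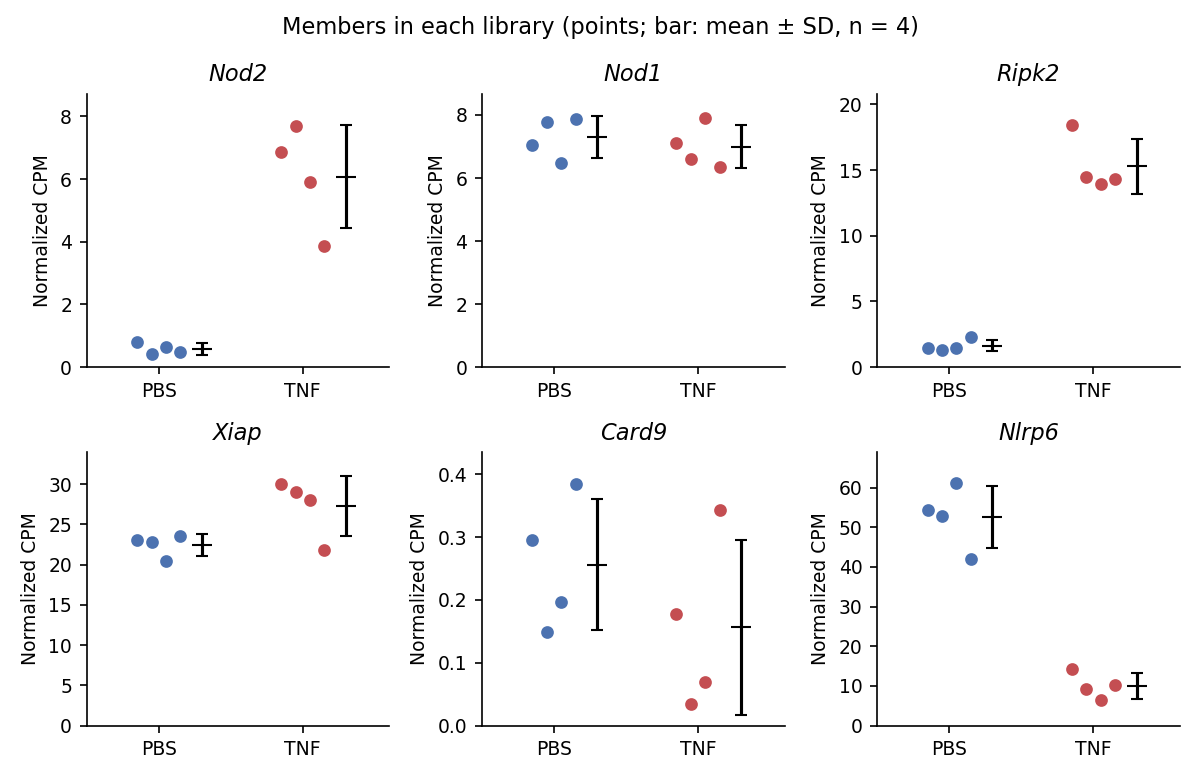
Each panel plots 1 gene, with normalized CPM on the y axis and the PBS (blue) and TNF (red) libraries as points beside the mean ± SD (n = 4). The TNF libraries lie above all PBS libraries for Nod2 and Ripk2 and below them for Nlrp6, whereas the groups overlap for Nod1, Xiap and Card9.

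Nod2 (ENSMUSG00000055994, GRCm39 chr8:89373943-89415102, plus strand) encodes the receptor for muramyl dipeptide. The 4 PBS libraries held 30, 11, 16 and 21 counts of Nod2, which came to 0.805, 0.409, 0.631 and 0.475 normalized CPM. The 4 TNF libraries held 193, 222, 168 and 45 counts, or 6.85, 7.69, 5.90 and 3.87 normalized CPM. Each TNF library was above each PBS library, and the lowest TNF value was that of replicate 4. The PBS mean was 0.580 ± 0.176 and the TNF mean 6.08 ± 1.64 normalized CPM (SD, n = 4), which gave a log2 fold change of 3.39 with a standard error (SE) of 0.28 and an adjusted p of 6.57e-06 (edgeR), or 10.5-fold. It ranked 166 among all tested genes by the size of its rise. Without TNF replicate 4 the log2 fold change was 3.55. With at most 30 counts in a PBS library, the starting level is known with less precision than the level after TNF. The long noncoding RNAs Gm64159 and Gm64186, on the opposite strand across parts of Nod2, were not in the count table. Whether the counting used strand is not given, so their reads cannot be told apart from those of Nod2.

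Nod1 (ENSMUSG00000038058, GRCm39 chr6:54900927-54949647, minus strand) encodes the related receptor for peptides that carry diaminopimelic acid. Its counts were 263, 209, 164 and 348 in PBS and 200, 191, 225 and 74 in TNF. These came to 7.05, 7.78, 6.47 and 7.88 normalized CPM in PBS and to 7.10, 6.61, 7.90 and 6.36 in TNF. The groups overlapped over most of their range. The means were 7.29 ± 0.663 and 6.99 ± 0.678 normalized CPM (SD, n = 4), and the log2 fold change of -0.06, with an SE of 0.13, did not pass (adjusted p = 0.754, edgeR). Over the alternatives tried it ran from -0.43 to -0.0049 without passing.

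Ripk2 (ENSMUSG00000041135, GRCm39 chr4:16121400-16163796, minus strand) encodes the kinase that both receptors recruit. It held 54, 36, 37 and 100 counts in PBS, or 1.45, 1.34, 1.46 and 2.26 normalized CPM. In TNF it held 519, 418, 397 and 167 counts, or 18.4, 14.5, 13.9 and 14.4 normalized CPM. The groups were far apart, with PBS replicate 4 the highest of its group and TNF replicate 1 the highest of all. The PBS mean was 1.63 ± 0.428 and the TNF mean 15.3 ± 2.10 normalized CPM (SD, n = 4), which gave a log2 fold change of 3.21 with an SE of 0.19 and an adjusted p of 7.62e-07 (edgeR), or 9.27-fold, which ranked 185 among the rises. The long noncoding RNA Parail, looked up because it lies on the opposite strand across the start of Ripk2, had 17 to 70 counts in PBS and 2 to 9 in TNF and a log2 fold change of -2.12 (adjusted p = 0.00244, edgeR). Whether the counting used strand is not given, so reads of the shared stretch cannot be told apart.

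Xiap (ENSMUSG00000025860, GRCm39 chrX:41148481-41198541, plus strand) encodes the ligase that puts ubiquitin chains on RIPK2 and also binds caspases. Its counts were 861, 613, 519 and 1041 in PBS and 847, 840, 798 and 254 in TNF. In normalized CPM these were 23.1, 22.8, 20.5 and 23.6 in PBS and 30.1, 29.1, 28.0 and 21.8 in TNF. Of the TNF libraries, 3 were above all PBS libraries and replicate 4 was among them. The means were 22.5 ± 1.38 and 27.3 ± 3.71 normalized CPM (SD, n = 4). The log2 fold change of 0.28, with an SE of 0.12, did not pass (adjusted p = 0.0877, edgeR). Without TNF replicate 4 it was 0.38 and passed (adjusted p = 0.00490, edgeR). Library size alone in place of scaling factors, which moved the median log2 fold change of all genes from 0.03 to -0.38, gave -0.07 for Xiap (adjusted p = 0.903, edgeR).

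Card9 (ENSMUSG00000026928, GRCm39 chr2:26242188-26250930, minus strand) encodes an adaptor best known from myeloid cells. It held 11, 4, 5 and 17 counts in PBS and 5, 1, 2 and 4 counts in TNF, which left it below the filter on low counts. In normalized CPM these were 0.295, 0.149, 0.197 and 0.385 in PBS and 0.178, 0.0346, 0.0702 and 0.344 in TNF. The groups overlapped, and a difference was not detectable at this depth. Tested without the filter, among 23246 genes, its log2 fold change was -0.997 with an SE of 0.70 (adjusted p = 0.337, edgeR). The long noncoding RNA Gm13562 on the opposite strand of Card9 had 18 to 53 counts, more than Card9 in every library, so the few Card9 counts are uncertain.

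Nlrp6 (ENSMUSG00000038745, GRCm39 chr7:140500815-140509105, plus strand) had the highest level per length of the 6 genes in PBS. It held 2024, 1422, 1550 and 1857 counts in PBS, or 54.3, 52.9, 61.1 and 42.0 normalized CPM. In TNF it held 401, 267, 184 and 119 counts, or 14.2, 9.24, 6.46 and 10.2 normalized CPM. The highest TNF library was below the lowest PBS library. The PBS mean was 52.6 ± 7.89 and the TNF mean 10.04 ± 3.22 normalized CPM (SD, n = 4), which gave a log2 fold change of -2.39 with an SE of 0.22 and an adjusted p of 1.33e-05 (edgeR), or 5.24-fold lower, which ranked 142 among the falls. Without TNF replicate 4 the log2 fold change was -2.38.

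Nlrp6 is also known in enterocytes and goblet cells, so markers of both were read beside it. Of 8 enterocyte markers, all tested, 2 were called lower, Apoa4 among them, and none higher, and their summed level was 97.0 to 135 normalized CPM in PBS. In TNF replicates 1 to 3 this sum was 47.8 to 55.8, below every PBS library, while in replicate 4 it was 101, with Fabp2 at 47.9 there against 11.2 to 12.7 in the other TNF libraries. Nlrp6 in TNF replicate 4 was at 10.2, below every PBS library. Without TNF replicate 4, Fabp2 (log2 fold change -0.89) and Sis (-0.92) were also called lower. Of 7 goblet markers, all tested, Muc2 and Spdef were called higher and Clca1 and Fcgbp lower, and the summed level was 3683 to 5942 normalized CPM in PBS and 6395 to 7631 in TNF. Muc2 made up much of this sum, with 1517 to 2600 normalized CPM in PBS, 5120 to 5879 in TNF replicates 1 to 3 and 2723 in TNF replicate 4. Agr2 was also called lower without TNF replicate 4 (log2 fold change -1.28, adjusted p = 4.14e-05, edgeR). PBS replicate 1 had 554 normalized CPM of Clca1 against 41.1 to 44.1 in the other PBS libraries. It was also the highest PBS library for Fcgbp (1130 against 551 to 658) and Muc2 (2600 against 1517 to 1875). The same held for Zg16 and Agr2, but not for Tff3 and Spdef. Nlrp6 was at 54.3 in PBS replicate 1 and at 42.0 to 61.1 in the other PBS libraries. The part of these cells in the fall of Nlrp6 was not tested.

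**Figure D2:**
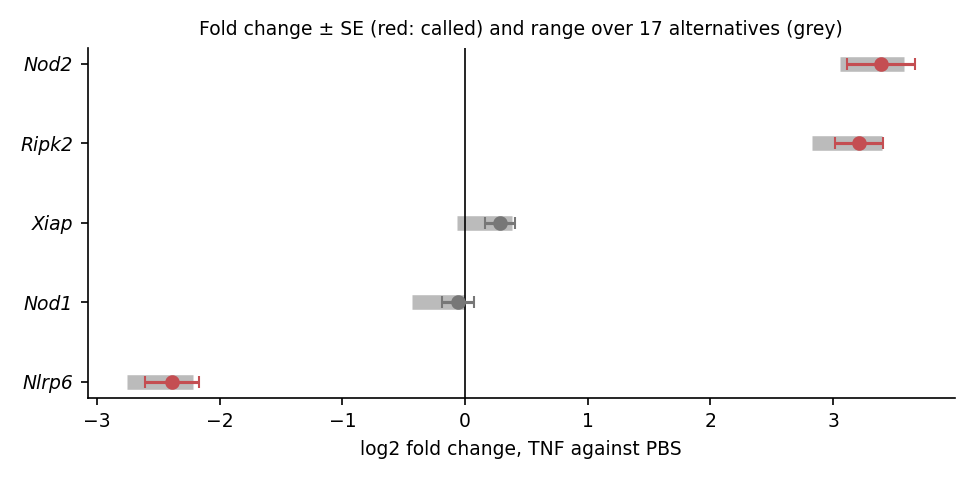
The log2 fold change of TNF against PBS is plotted on the x axis for the 5 tested genes, as points with bars of 1 SE (red where called) over grey bands that span the values under 17 alternatives. The bands of Nod2 and Ripk2 lie wholly above 0 and that of Nlrp6 wholly below it, whereas the band of Xiap crosses 0.

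To compare the genes with each other, normalized CPM were divided by the length of all annotated exons of a gene in kilobases (kb). In PBS the mean levels per kb were 10.3 ± 1.55 for Nlrp6, 2.28 ± 0.140 for Xiap and 1.23 ± 0.112 for Nod1 (SD, n = 4). Ripk2 at 0.278 ± 0.0730, Nod2 at 0.116 ± 0.0351 and Card9 at 0.0814 ± 0.0333 normalized CPM per kb followed. Of these neighbours in the order, Nod2 and Card9 overlapped and the other pairs did not. Among 13316 genes with a length, 90.79% had a lower level per kb than Nlrp6 in PBS and 4.874% a lower level than Nod2.

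After TNF the order of the 6 genes was different. Xiap came first at 2.76 ± 0.376 normalized CPM per kb, followed by Ripk2 at 2.61 ± 0.358, Nlrp6 at 1.98 ± 0.634, Nod2 at 1.21 ± 0.328 and Nod1 at 1.18 ± 0.114 (SD, n = 4), with Card9 last at 0.0497 ± 0.0441. Each of the first 5 overlapped its neighbour in the order, and only Card9 was apart from the gene above it. The share of genes with a lower level per kb was 55.72% for Nlrp6, 62.81% for Ripk2 and 43.23% for Nod2. The length covers every annotated isoform, and which isoforms PCs used was not measured.

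**Figure D3:**
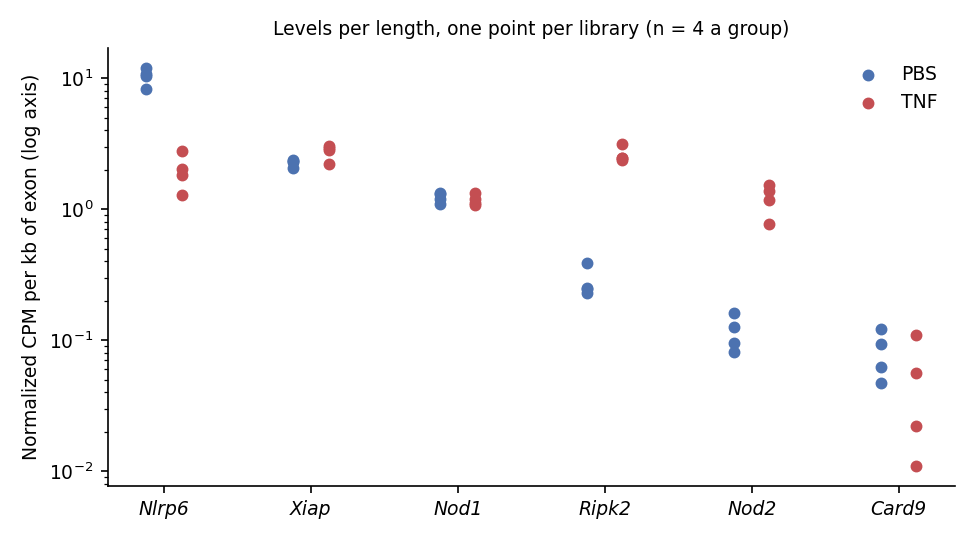
Normalized CPM per kb of exon are plotted on a log y axis for the 6 genes, with 1 point per library (PBS blue, TNF red, n = 4 a group). Spread over about 2 orders of magnitude in PBS, the genes other than Card9 come within about 4-fold of each other after TNF, from 0.771 to 3.15 per library.

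Ratios between 2 of the genes within the same library do not depend on how libraries are scaled, and 3 were tested. Nod2 per kb was 0.0935 of Nod1 in PBS and 0.999 of Nod1 in TNF. The log2 ratio was -2.87, -3.95, -3.08 and -3.78 in the PBS libraries and 0.19, 0.46, -0.18 and -0.47 in the TNF libraries, which do not overlap. The difference of 3.42 had a two-sided exact permutation p of 0.0286, the smallest that 70 assignments of the libraries allow, and 0.0429 after adjustment over the 3 ratios. Per length, the RNA of the NOD receptors was mostly Nod1 in PBS and about evenly Nod1 and Nod2 in TNF.

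Ripk2 per kb was 0.121 of Xiap in PBS and 0.949 of Xiap in TNF. The log2 ratio differed by 2.97 with the same exact permutation p of 0.0286 (0.0429 adjusted over the 3 ratios), and no TNF library overlapped a PBS library. Nod2 per kb against Ripk2 had a log2 ratio of -1.26 ± 0.603 (PBS) against -1.14 ± 0.404 (TNF; SD, n = 4). They differed by 0.11, which did not pass (exact permutation p = 0.771), and it ranged from -0.13 to 0.33 when each library was left out in turn, turning negative without PBS replicate 4 (-0.13) or TNF replicate 2 (-0.04).

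**Figure D4:**
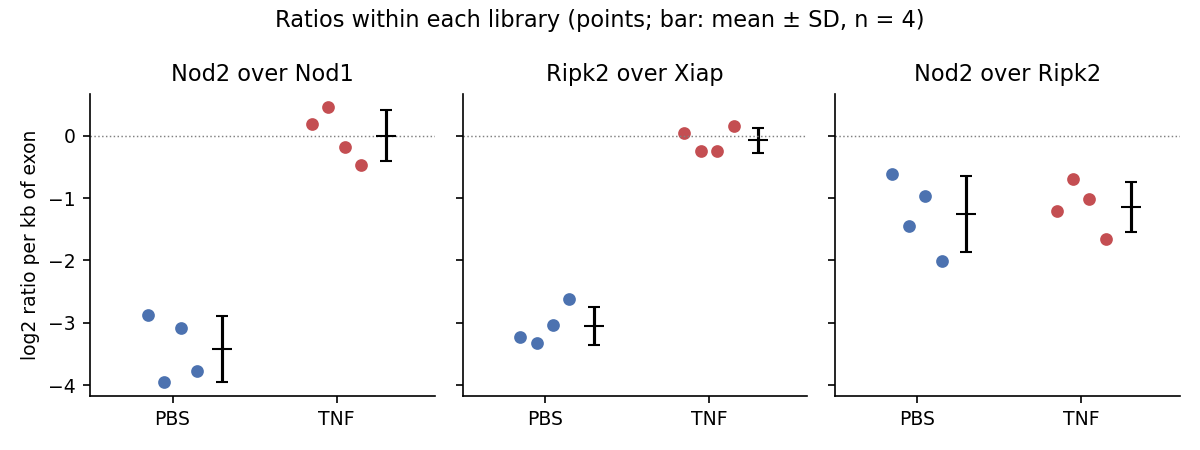
The log2 ratio of the levels per kb of 2 genes is plotted for each library, in PBS (blue) and TNF (red), with the mean ± SD (n = 4). The TNF libraries lie near 0, where both genes have the same level, for Nod2 over Nod1 and Ripk2 over Xiap, while the groups overlap for Nod2 over Ripk2.

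The genes around this pathway were read from 9 lists of 96 genes in all. Of these, 70 were tested, of which 35 were called higher and 8 lower (61.4% called, against 43.0% of all genes), and the median log2 fold change was 0.45 against 0.03 over all genes. The numbers called depended on scaling. With library size alone, 14 list genes were called higher and 9 lower (23 of 70, against 3182 of all 13368 genes). The list median was then 0.03 against -0.38 over all genes, so it stayed above that of all genes. Without TNF replicate 4, 72 list genes were tested, 38 called higher and 10 lower, with a median of 0.40. A change below is therefore relative to the bulk of genes, and a call that did not hold with library size alone is marked as such.

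**Figure D5:**
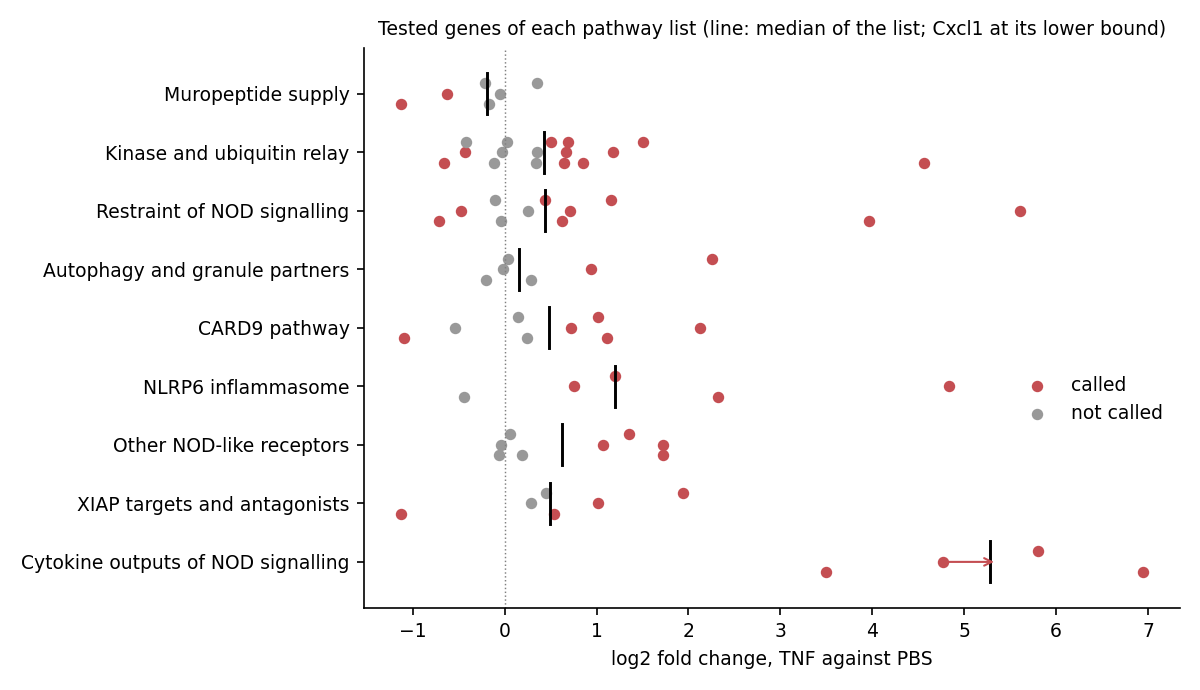
The log2 fold change of TNF against PBS is plotted on the x axis for the tested genes of each list (red where called, grey where not) with a line at the list's median, and Cxcl1, at 0 in PBS, is drawn at its lower bound with an arrow. The cytokine list lies farthest to the right, with a median of 5.28, and muropeptide supply is the only list with a median below 0, at -0.19 (-0.46 without TNF replicate 4).

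Upstream of the receptors, muropeptide supply covers the transporters and enzymes that bring in or process peptidoglycan fragments. Of its 11 genes, 6 were tested, none was called higher and 2 were called lower. The median log2 fold change was -0.19, and -0.46 without TNF replicate 4. The transporter gene Slc46a3 fell from 6.91 to 3.13 normalized CPM (log2 fold change -1.12, SE 0.16, adjusted p = 0.000276, edgeR), and Nagk, the kinase that primes muramyl dipeptide for NOD2, fell from 8.70 to 5.68 (-0.62, SE 0.13, adjusted p = 0.00244, edgeR). The peptidoglycan-binding Pglyrp1 had a mean of 462 (PBS) against 591 (TNF) normalized CPM and did not pass (0.35, adjusted p = 0.0849, edgeR). It was at -0.02 with library size alone. It passed without TNF replicate 4 (0.37, adjusted p = 0.0333, edgeR), with limma-voom (adjusted p = 0.0444) and with DESeq2 (adjusted p = 0.0395). The peptide transporter gene Slc15a1 was not tested, with 0.234 normalized CPM in PBS and 0.135 in TNF.

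In the kinase and ubiquitin relay below RIPK2, 16 of 16 genes were tested, 8 were called higher and 2 lower, with a median log2 fold change of 0.43. Birc3, a ligase of the same family as XIAP, rose from 8.09 ± 1.92 to 191 ± 24.4 normalized CPM (SD, n = 4; 4.56, SE 0.20, adjusted p = 1.54e-07, edgeR). Rnf31, the catalytic subunit of the complex that builds linear ubiquitin chains, rose from 13.1 to 37.2 (1.51, adjusted p = 6.65e-06), while its partners Rbck1 at 0.03 and Sharpin at -0.03 did not pass. Traf6 rose from 18.5 to 41.6 (1.17, adjusted p = 0.000412), a call that did not hold with library size alone (0.86). The adaptors Tab1 (-0.66) and Ikbkg (-0.43) were the 2 called lower. With library size alone, 4 of the 16 were called and the median was -0.0011.

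Of 11 genes known to restrain NOD signalling, all tested, 6 were called higher and 2 lower, with a median of 0.44. The ubiquitin-editing enzyme gene Tnfaip3 (A20) rose from 3.48 to 54.7 normalized CPM (3.96, adjusted p = 2.72e-07, edgeR) and the cytokine signalling inhibitor Socs3 from 7.92 to 385 (5.60, adjusted p = 3.18e-07). Traf4, which binds NOD2, rose from 25.5 to 56.7 (1.15, adjusted p = 0.000107), a call that did not hold with library size alone (0.82). Mtmr4 (-0.72) and Rnf34 (-0.47) were called lower. With library size alone, 2 were called higher and 2 lower.

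The autophagy and granule genes, which have been placed with NOD2 in the sorting of lysozyme into PC granules, had 6 of 7 tested and 2 called, both higher. Irgm1, an interferon-inducible GTPase, rose from 21.0 to 100 normalized CPM (2.25, adjusted p = 2.15e-06, edgeR). Atg16l1, an autophagy gene that also carries Crohn's disease risk, rose from 9.30 to 17.9 (0.94, adjusted p = 0.000710), a call that did not hold with library size alone (0.51). Atg5 (0.04), Atg7 (-0.20), Rab2a (-0.02) and Map1lc3b (0.28) did not pass. The median of 0.16 turned to -0.31 with library size alone.

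For the CARD9 pathway, the lectin receptor genes Clec7a, Clec4n, Clec4e and Clec4d and their adaptor Fcer1g were at 0 in every library. Of the 8 genes tested of 13, 4 were called higher and 1 lower, with a median of 0.48. Bcl10, the partner of CARD9, rose from 23.6 to 103 normalized CPM (2.12, adjusted p = 4.52e-07, edgeR), and its other partner Malt1 (0.14) did not pass. The kinase gene Prkcd rose from 30.2 to 65.2 (1.11, adjusted p = 9.50e-05), which did not hold with library size alone (0.74). Trim62, a ligase for CARD9, fell from 2.42 to 1.11 (-1.10, adjusted p = 0.00242). With library size alone, 2 of the 8 were called.

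Of 7 genes of the NLRP6 inflammasome, 5 were tested, 4 were called higher and none lower, with a median of 1.20. Casp4, an inflammatory caspase gene, rose from 3.79 to 109 normalized CPM (4.83, adjusted p = 2.19e-07, edgeR) and the pore protein gene Gsdmd from 2.75 to 13.8 (2.33, adjusted p = 1.02e-05). Dhx15, an RNA helicase that binds NLRP6, rose from 69.0 to 116 (0.75, adjusted p = 0.000343), which did not hold with library size alone (0.39). The adaptor gene Pycard (-0.44) did not pass, and of the cytokines the inflammasome cleaves, Il18 had 0.189 normalized CPM in PBS and 0.287 in TNF while Il1b had at most 1 count in a library. Casp1 was called higher (1.20) but not with library size alone. Pycard was called lower with library size alone and without TNF replicate 4 (-0.79, adjusted p = 0.000146, edgeR, in the latter).

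Of 15 other NOD-like receptor genes, 8 were tested and 4 were called, all higher, with a median of 0.63. Nlrx1, a mitochondrial member of the family, rose from 5.33 to 17.7 normalized CPM (1.73, adjusted p = 1.12e-05, edgeR). Nlrc4, the inflammasome receptor that works with the NAIP proteins, rose from 50.5 to 106 (1.07, adjusted p = 0.000363), and Ciita, the activator of MHC class II genes, from 1.26 to 3.19 (1.36, adjusted p = 0.00516). The calls of Nlrc4 (0.65) and Ciita (1.01) did not hold with library size alone. Naip1, Naip2, Naip5 and Naip6 did not pass, with log2 fold changes of -0.06 to 0.19, and as near-identical copies they are uncertain as single genes. Naip6 (-0.06, SE 0.78) had 0 counts in TNF replicate 2 and 215 to 440 in the other TNF libraries. Nlrp1b had 19, 9, 10 and 19 counts in PBS and 0, 3, 0 and 0 in TNF and was below the filter. Without TNF replicate 4 it was tested and called lower (-3.43, adjusted p = 0.00254, edgeR), so that 9 genes were tested, 4 called higher and 1 lower, with a median of 0.23. Nlrp3 and Nlrp12, of myeloid cells, were not tested, with means of at most 0.00986 normalized CPM.

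Of 7 targets and antagonists of XIAP, 6 were tested, 3 were called higher and 1 lower, with a median of 0.50. Casp9, a caspase that XIAP binds, fell from 9.42 to 4.32 normalized CPM (-1.13, adjusted p = 6.10e-05, edgeR). The antagonist gene Xaf1 rose from 0.776 to 2.91 (1.94, adjusted p = 0.000205). Of the 6, 2 were called with library size alone.

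Of 9 cytokine genes that NOD signalling can switch on, 4 were tested and all 4 were called higher. Tnf rose from 0.320 to 19.0 normalized CPM (5.80, adjusted p = 3.18e-07, edgeR), Ccl20 from 0.755 to 8.67 (3.49, adjusted p = 2.07e-06) and Cxcl10 from 0.252 to 37.0 (6.94, adjusted p = 7.07e-06). The fold of Cxcl10 rests on PBS replicate 4, at 0.838 against 0.0372 to 0.0789 in the other PBS libraries, and without it the log2 fold change was 9.23. Cxcl1 was at 0 in all PBS libraries and at 2.58 normalized CPM in TNF, at least 27.3-fold higher with a floor of 3 counts per library. The median was 6.37 with the fitted value of Cxcl1 and 5.28 with Cxcl1 at this bound. Without TNF replicate 4, 5 of the 9 genes were tested and all 5 were called higher, with a median of 7.03 from fitted values. Ccl2 and Il6 were at 0 in every library. These cytokines, Birc3 and Tnfaip3 are also known targets of TNF signalling itself, and the parts of the receptors cannot be told apart.

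The protein-coding gene nearest on each side of each of the 6 genes was read to see whether a change extended along the chromosome. Snx20, 11152 bases from Nod2, had a log2 fold change of 0.07 (adjusted p = 0.756, edgeR), and Cyld, 8366 bases on the other side and itself a deubiquitinase of NOD signalling, rose from 22.5 ± 0.780 to 34.7 ± 5.22 normalized CPM (SD, n = 4; 0.63, SE 0.13, adjusted p = 0.00217), a call that did not hold with library size alone (0.29). Beside Nlrp6, Pgghg was at -0.14 and did not pass, and Cox8b was at 0. Beside Ripk2, Osgin2 rose by 0.82 (adjusted p = 0.0136, not held with library size alone at 0.36) and Mmp16 was not tested. Of the neighbours of Nod1, Xiap and Card9, Znrf2 (-0.10), Ggct (-0.16) and Dnlz (-0.08) did not pass, Stag2 was called at -0.65 but not with library size alone (-0.99, adjusted p = 0.0572, edgeR), and Thoc2 (0.42) and Snapc4 (0.63) were called, but not with library size alone (0.03 and 0.19). The call of Thoc2 was lost without any of PBS replicates 1 to 3 or TNF replicates 1 to 3 (0.33 to 0.42 on the log2 scale), and that of Snapc4 without PBS replicate 1, 2 or 3 or TNF replicate 1 (0.54 to 0.62). Thoc2 was also lost without the filter on low counts (adjusted p = 0.0945, edgeR) and with the replicate block (adjusted p = 0.0737, edgeR). No tested neighbour had a change as large as that of the called gene it lies beside.

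The genes whose profiles over the 8 libraries were most like those of the 6 were found by the root mean square (RMS) difference of log2 normalized CPM from the PBS mean, among tested genes with a mean of at least 5 normalized CPM. Nearest to Nod2 were Hk2 (hexokinase, RMS difference 0.224), Atp10b (0.253) and Lrrtm2 (0.326). Nearest to Ripk2 were Nfkb2, an NF-kB subunit gene (0.139, log2 fold change 3.27), Psd (0.181) and Mapk4 (0.227). Psd overlaps Nfkb2 on the opposite strand, and whether the counting used strand is not given, so Psd is uncertain as a separate gene. Nearest to Nlrp6 were Bhlha15, a transcription factor gene of secretory cells that went from 223 to 50.2 normalized CPM (RMS difference 0.235), Fam13a (0.248) and Foxa2, a forkhead factor gene of gut epithelium (0.285). Nod1 was nearest to Tom1l2 (0.0720), Atpaf2 (0.0745) and Pnpla8 (0.0781), and Xiap to Vps4b (0.0524), Stk4 (0.0612) and Tom1l1 (0.0634), which, like Xiap, were called higher only without TNF replicate 4 (log2 fold changes of 0.33, 0.40 and 0.32). The 8 libraries form 2 groups, so likeness mostly reflects the size of the difference between them.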

How the data were processed

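RNA was measured in 8 libraries of FACS-sorted PCs, 4 from PBS mice and 4 from TNF mice. The deposited table held the authors' raw counts per Ensembl gene, without normalization. The submitters' processing notes name FastQC 0.12, STAR 2.7.10a, DESeq2 and the mm39 build, without giving a role. The counter, its strand setting and its treatment of reads shared by several genes are not stated in any source used here, so counts of overlapping genes and near-identical copies are uncertain. Of 55414 IDs, 54749 were matched to names and positions in GENCODE release M39 and 665 were not.

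TNF was compared with PBS in edgeR 4.0.16 (R 4.3.3, quasi-likelihood F test, TMM factors, filterByExpr, no covariate), with Benjamini-Hochberg adjustment over 13368 genes and a threshold of 0.05 on the adjusted p. SE came from the F statistic. Normalized CPM used TMM-scaled library sizes of tested genes. Ratios used counts plus 0.5 per kb of exon and two-sided exact permutation tests. The fit was run on simulated data with the same dispersion for all genes. No simulated library stood apart as TNF replicate 4 did, so the run does not speak to that. Replicates were compared and none were duplicates. Because it is not certain that the libraries are separate mice, p-values measure the spread between these libraries. Depth was 23824717 to 32576077 counts per library, and the floor of 3 counts covers counting error only.

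The 6 genes and all lists were chosen with earlier results of these data known. Named were the 6 genes, in each list the 3 tested genes with the smallest p, the nearest protein-coding gene on each side and the 3 most alike profiles. Single values of a few list genes are not reported here. Other list genes and overlapping RNAs were named after their values were seen. Alternatives were RLE factors, library size alone, TMM without Defa genes, no filter or 1 CPM in 4 libraries, DESeq2 1.42.0, limma-voom (limma 3.58.1), a threshold of 0.01, replicate number as a block, and leaving out each library.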

Additional observations from a re-analysis of the deposited data

Results flagged for a closer look

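Of 126 groups of 4 values examined, 13 held a value whose gap to the nearest of the others was over 0.829 of the group's range, and chance alone gives about 1 in 20. All are in normalized CPM. Ripk2 was at 2.26 in PBS replicate 4 (the other PBS libraries at 1.34 to 1.46) and at 18.4 in TNF replicate 1 (the others at 13.9 to 14.5), both within groups that lay far apart. PBS replicate 4 was also high for Nlrc4 (67.1 against 42.7 to 46.3), Cxcl10 (0.838 against 0.0372 to 0.0789) and Nfkb2 (26.3 against 19.3 to 20.3).

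PBS replicate 3 was high for Traf4 (29.4 against 24.04 to 24.4) and Bcl10 (25.2 against 22.9 to 23.2) and low for Tom1l1 (29.1 against 34.5 to 35.2). Ccl20 was low in PBS replicate 2 (0.484 against 0.831 to 0.867). TNF replicate 4, the library with the lowest scaling factor, was low for Znrf2 (25.3 against 33.6 to 35.04), Cyld (26.9 against 36.3 to 37.8), Nfkb2 (186 against 212 to 216) and Stk4 (16.3 against 23.4 to 24.1).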

How the results depend on the processing

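Nod2, Ripk2 and Nlrp6 kept their direction and their call under all 17 alternatives, at log2 fold changes of 3.06 to 3.58, 2.82 to 3.40 and -2.76 to -2.22. Nod1 was called under none. Xiap was at -0.069 with library size alone and ran from 0.21 to 0.38 when each library was left out in turn, passing only without TNF replicate 4. Library size alone called 3182 genes (757 higher, 2425 lower) in place of 5746, and 23 list genes in place of 43. Leaving out each library gave 4757 to 6923 genes, 3 to 4 of the 6 genes and 40 to 48 list genes. The cause was not tested. Library size alone also turned the sign of Pglyrp1 (-0.017), Snx20 (-0.29), Vps4b (-0.11), Stk4 (-0.072) and Tom1l1 (-0.13), none of them called there. Left-out libraries turned Znrf2 (-0.16 to 0.0093), Snx20 (-0.048 to 0.16), Tom1l2 (-0.10 to 0.025) and the log2 ratio of Nod2 over Ripk2 (-0.13 to 0.33).

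Equal replicate numbers showed no clear sign of pairing the libraries, with correlations of their deviations of 0.0230, 0.0663, -0.144 and -0.126. Not every library correlated best with its own number, and such weak values cannot exclude a pairing. With the replicate block, 5087 genes, 3 of the 6 genes and 41 list genes were called. A sign-flip test over equal numbers (replicate block) left the ratio differences at 3.42 and 2.97, with an adjusted p of 0.188, where 4 pairs cannot go below an exact p of 0.125. Among the 6 genes, counts were lowest for Card9 in both groups and next lowest for Nod2 in PBS.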
